A study of Mus musculus with 6 samples.

Results

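The 36 genes described here encode the enzymes and transporters of glycolysis, the enzymes that store and release glycogen, and the factors that sense low oxygen with some of the genes they induce. They were chosen by gene symbol, and all 36 were found among the 23420 genes counted by RNA sequencing. Mutant libraries (n = 3) came from mouse embryos that were null for Etv4 (Etv4-/-), had both copies of Etv5 (Etv5fl/fl) and of Etv1 (Etv1 fl/fl) floxed, and carried Le-Cre. Control libraries (n = 3) came from embryos that carried Le-Cre alone, so both groups make the recombinase. All 6 were prepared from the transition zone of the lens at E14.5 and share a mixed strain background. Le-Cre deletes floxed alleles in the ectoderm that gives rise to lens and cornea, whereas Etv4 is lost in every tissue. Etv1, Etv4 and Etv5 encode the Pea3 factors, ETS transcription factors that act downstream of FGF receptors. The comparison asks how expression in this band, where epithelial cells begin to turn into fibre cells, differs in these mutants.

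The lens has no blood vessels of its own once mature and lives largely on glucose broken down to lactate. Glucose enters through SLC2A transporters, is trapped by hexokinase and passes down the glycolytic chain to pyruvate, which either becomes lactate or enters the mitochondrion through the pyruvate dehydrogenase complex. Glycogen is a local glucose store that glycogen phosphorylase breaks down. When oxygen is scarce, prolyl hydroxylases of the EGLN family stop marking HIF-1α for destruction, and the stabilised factor induces many glycolytic genes.

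Pygl fell to a mean of 9.47 CPM in mutant libraries, against 54.8 CPM in control libraries, and Pdk3 rose to 61.4 CPM, against 32.0 CPM (CPM is the count scaled to library size). Pygl encodes the liver isoform of glycogen phosphorylase, and Pdk3 encodes a kinase that switches off pyruvate dehydrogenase. Of the 35 members that passed the filter on low counts, 1 rose, 1 fell and 33 did not pass the threshold, a Benjamini-Hochberg adjusted p of 0.05 in edgeR's quasi-likelihood test over all genes. Over all 12257 tested genes, 2.22% passed, with 1.14% higher and 1.08% lower. The member that was not tested, Epas1, was too low. The median log2 fold change over the tested members was 0.11, against 0.00176 over all tested genes, and 21 members had positive and 14 negative values. For 9 of the 35 every mutant value lay on the same side of every control value, against 22.7% of all tested genes, and 7 had an unadjusted p under 0.05, against 16.2% of all. These shares lie near those of the whole table. The labels leave unsaid if libraries are separate embryos, and p-values therefore cover the spread among libraries. Mutant library 1 differed from mutant libraries 2 and 3 in the sex-linked genes Xist and Ddx3y, so it came from other embryos than they did. Among the other libraries the spread may be in part technical. Errors after ± are standard errors for log2 fold changes and SD for levels and ratios.

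**Figure D1:**
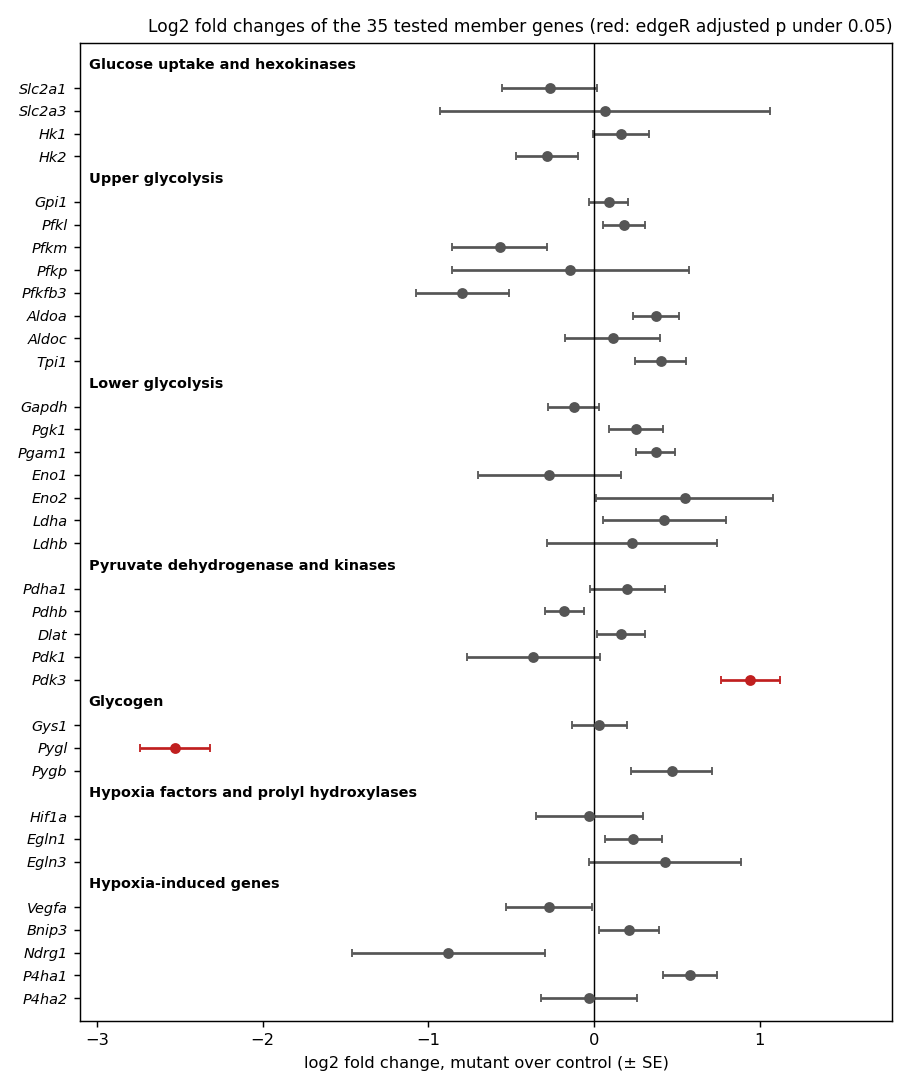
Log2 fold changes, mutant over control, of the 35 tested members grouped by role, with bars of 1 standard error; red marks an edgeR adjusted p under 0.05. Pygl at -2.53 lies far left of the other members, Pdk3 at 0.94 is the second red point, and the other 33 lie between -0.88 and 0.58.

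The promoters of these genes are shown because Pygl and Pdk3 are the members that changed. Each line gives the 250 bases before the RefSeq transcription start (build GRCm38.p6, minus strand, 5′ to 3′), at chr12:70227684-70227933 for Pygl and chrX:93832151-93832400 for Pdk3. Capitals mark ACGTG or GCGTG on either strand, the core letters of the hypoxia response element bound by HIF.
Pygl: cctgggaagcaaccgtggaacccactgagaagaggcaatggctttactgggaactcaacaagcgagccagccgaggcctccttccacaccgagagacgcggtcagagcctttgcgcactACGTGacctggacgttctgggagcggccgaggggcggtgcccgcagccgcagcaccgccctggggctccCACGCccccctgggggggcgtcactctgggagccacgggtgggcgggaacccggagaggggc
Pdk3: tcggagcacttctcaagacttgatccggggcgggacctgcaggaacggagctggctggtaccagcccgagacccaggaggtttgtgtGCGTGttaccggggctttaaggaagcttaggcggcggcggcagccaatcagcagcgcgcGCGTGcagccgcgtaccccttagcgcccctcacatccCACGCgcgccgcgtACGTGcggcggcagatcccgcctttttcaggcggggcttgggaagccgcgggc

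Pygl held 1 match to ACGTG and 1 to GCGTG in this window, and Pdk3 held 1 and 3. Neither window held CCGGAA, 1 longer form of the ETS site. The shorter ETS core GGAA occurs in both printed windows, and its share over all genes was not counted. RefSeq promoters were matched for 33 of the 36 members. At least 1 of ACGTG and GCGTG, on either strand, was present for 28 of these 33 genes, or 84.8%, against 41.5% of all 27025 genes with a promoter. A gene may have more than 1 window, and the members had 46 for 33 genes, against 32851 for 27025 genes in the whole table. Counted by window, 36 of the 46, or 78.3%, held ACGTG or GCGTG, against 38.6% of all windows. CCGGAA was present for 4 of the 33 genes, or 12.1%, against 13.6% of all genes. The GC content of the members' windows was 60.8%, against 53.2% for all, and its part in the motif counts was not tested. The members were chosen in part as genes induced by low oxygen, so their share of these letters is not read as a result about hypoxia. The part of that choice in the share was not tested. The comparison took in every gene with a promoter, also those not tested for expression here.

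The libraries held between 13364742 and 17301168 counts, and a count of 0 allows up to 0.247 CPM in the one of smallest scaled size (3 counts; counting error only). Of the targeted genes, Etv1 had 29.0, 21.6 and 28.9 CPM in mutant libraries, against 45.4, 56.1 and 70.7 CPM in control libraries (log2 fold change -1.11 ± 0.21; edgeR adjusted p = 0.0319). Etv5 had 116.2, 111.2 and 82.9 CPM in mutant libraries, against 245.5, 176.8 and 168.2 CPM in control libraries, and just missed the threshold (-0.93 ± 0.19; edgeR adjusted p = 0.0503). Etv4 had 4.92, 3.71 and 4.20 CPM in mutant libraries, against 2.92, 2.13 and 3.21 CPM in control libraries, and was not lower (0.64 ± 0.36; edgeR adjusted p = 0.427). Whether the counts of these genes cover the deleted parts is not given. Each of 8 lens markers was detected in every library. Mutant libraries 1, 2 and 3 had crystallin shares of 21.7%, 32.2% and 19.5% of their counts, against 37.6%, 30.2% and 21.8% in control libraries 1, 2 and 3. Macrophage markers (7 of 7 detected in at least 1 library) summed to between 4.04 and 27.4 CPM in mutant libraries, against 0.942 to 7.40 CPM in control libraries. Endothelial markers (8 of 8) summed to between 23.2 and 57.3 CPM in mutant libraries and between 34.6 and 47.9 CPM in control libraries, mostly from Tek. Erythroid markers summed to between 76.7 and 313.2 CPM in mutant libraries and between 56.1 and 184.5 CPM in control libraries, with 5 of 9 genes detected and the adult globin genes Hba-a1, Hba-a2, Hbb-b1 and Hbb-b2 at 0 throughout. Periocular mesenchyme markers summed to between 94.4 and 170.3 CPM in mutant libraries and 47.8 to 155.6 CPM in control libraries, mostly from Pdgfra. Retina markers summed to 2.56 to 5.85 CPM in mutant and 3.99 to 7.77 CPM in control libraries, with Six6 at 0, and surface ectoderm markers to 1.78 to 7.63 CPM in mutant and 0.610 to 2.37 CPM in control libraries, with Krt12 at 0. In bulk tissue, fewer cells of a type and less RNA per cell cannot be told apart. The median over 24 genes of S phase was 73.6, 35.8 and 86.9 CPM in mutant libraries 1, 2 and 3, against 15.7, 36.4 and 45.0 CPM in control libraries 1, 2 and 3. Xist reached 711 counts in mutant library 1, where Ddx3y had 2, against 521 to 890 counts of Ddx3y in each other library.

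Pygl, at the step of glycogen breakdown, had the largest log2 fold change of the tested members. Pygl stood at 8.63, 8.49 and 11.3 CPM in mutant libraries 1, 2 and 3, against 63.3, 43.6 and 57.4 CPM in control libraries 1, 2 and 3. All 3 mutant libraries lay far below the lowest control library, and the spread within each group was small beside the gap. The means were 9.47 CPM ± 1.57 in mutant and 54.8 CPM ± 10.1 in control libraries (SD, n = 3 each), so that control libraries were 5.79-fold higher. The log2 fold change was -2.53 ± 0.21 (edgeR adjusted p = 0.000822). The call held in every alternative fit that was run, with log2 fold changes between -2.67 and -2.41 when single libraries were left out. In the authors' deposited table the log2 fold change of Pygl was -2.47 with an adjusted p of 1.51e-22. Of the 10 tested genes nearest to Pygl in gene order, 5 on each side, 0 passed the threshold in edgeR, against 2.22% of all tested genes. At that share a count of 0 among 10 says little about the region. Log2 fold changes of these neighbours ran from -1.11 (Trim9) to 0.29 (Frmd6). Pygl shared 1.22% of its windows of 50 bases with another annotated gene. In mutant libraries 1 and 3 the macrophage sum and the S phase median lay above every control library, and their part in the result was not tested.

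The other phosphorylase genes did not pass. Pygb, which encodes the brain isoform, had 50.9, 34.4 and 68.5 CPM in mutant libraries 1, 2 and 3, against 31.5, 39.7 and 40.0 CPM in control libraries 1, 2 and 3. Mutant libraries 1 and 3 exceeded every control library and mutant library 2 lay among them, for a log2 fold change of 0.47 ± 0.24 (edgeR adjusted p = 0.39). Pygm, the muscle isoform and not one of the 36, had 142.4, 288.0 and 115.8 CPM in mutant libraries, against 460.9, 245.7 and 194.3 CPM in control libraries (log2 fold change -0.72 ± 0.42; edgeR adjusted p = 0.449). Per kb of transcript, Pygm had the highest mean level of the 3 isoforms, at 63.3 CPM per kb in mutant and 104.5 CPM per kb in control libraries. Pygb followed at 13.1 CPM per kb in mutant libraries, above Pygl at 3.16. In control libraries the order was reversed, with Pygb at 9.48 and Pygl at 18.3 CPM per kb. Gys1, which encodes the glycogen synthase of muscle and most other tissues, averaged 51.4 CPM ± 4.38 in mutant and 50.3 CPM ± 9.503 in control libraries (SD, n = 3 each; log2 fold change 0.03 ± 0.17; edgeR adjusted p = 0.944).

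**Figure D2:**
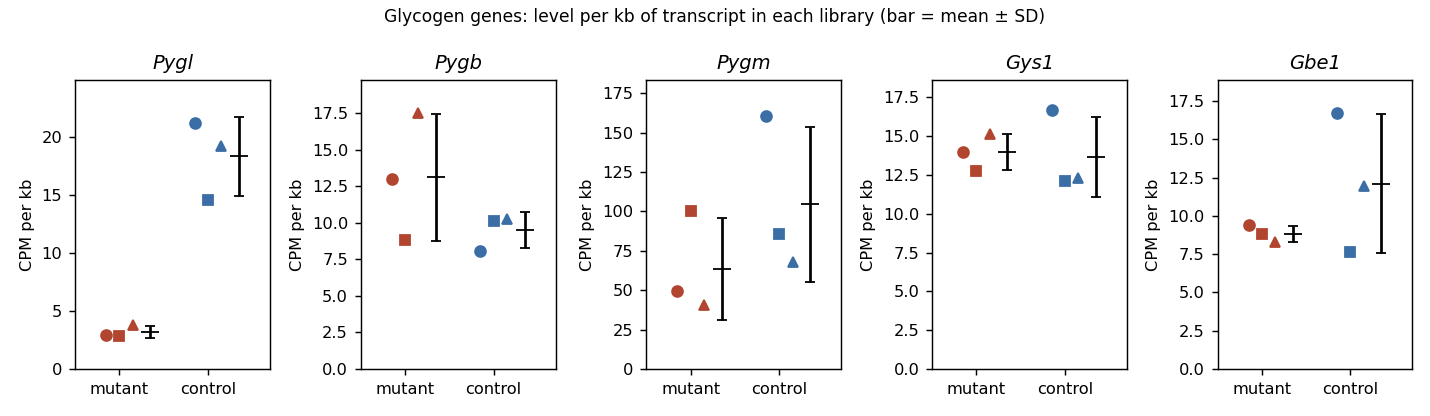
Level per kb of transcript of 3 glycogen phosphorylase genes, the synthase gene Gys1 and the branching enzyme gene Gbe1 in each library; circles, squares and triangles are replicates 1, 2 and 3, and the bar is the mean ± SD. Pygl lies at a mean of 3.16 in mutant and 18.3 CPM per kb in control libraries with no overlap, while the groups overlap for the other 4 genes.

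Of 19 further glycogen genes tested (21 listed), 0 passed in edgeR and 3 had an unadjusted p under 0.05, namely Gaa, Ppp1r3c and Ppp1r3b. Over all tested genes 16.2% had an unadjusted p under 0.05, and over the 8 further pathway lists together 11 of 100 tested genes did. Of the 19, 15 had negative log2 fold changes, with a median of -0.13, against 6099 of all 12257 tested genes. Gaa, which encodes the lysosomal enzyme that digests glycogen, averaged 124.3 CPM ± 29.1 in mutant and 181.1 CPM ± 29.6 in control libraries (SD, n = 3 each; log2 fold change -0.54 ± 0.19; edgeR adjusted p = 0.217). Ppp1r3c and Ppp1r3b encode subunits that bring protein phosphatase 1 to glycogen, and their log2 fold changes were -1.21 ± 0.49 and -1.42 ± 0.59 (edgeR adjusted p = 0.27 and 0.286). The means of Ppp1r3b were 0.515 CPM in mutant and 1.38 CPM in control libraries, close to the detection floor. Phkg1, the gene of a catalytic subunit of phosphorylase kinase, had a log2 fold change of -1.27 ± 0.56 (edgeR adjusted p = 0.313). It too was low, with 11, 14 and 12 counts in mutant libraries, against 34, 25 and 29 in control libraries (means 0.789 and 1.89 CPM).

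At the entry of pyruvate into the mitochondrion, Pdk3 rose. It stood at 59.95, 48.9 and 75.3 CPM in mutant libraries 1, 2 and 3, against 30.7, 34.0 and 31.1 CPM in control libraries 1, 2 and 3. Every mutant library exceeded every control library, and the control values were close together. The means were 61.4 CPM ± 13.3 in mutant and 32.0 CPM ± 1.79 in control libraries (SD, n = 3 each), a 1.92-fold difference and a log2 fold change of 0.94 ± 0.18 (edgeR adjusted p = 0.0353). The call was lost without mutant library 1 or 3 or control library 1, 2 or 3, where the log2 fold change lay between 0.77 and 0.99 and the edgeR adjusted p between 0.0938 and 0.136. Pdk3 is on the X chromosome, and its log2 fold change without mutant library 1, the one with Xist counts, was 0.96. Within the mutant group Pdk3 and the S phase median had the same order, with library 3 highest and library 2 lowest, whereas in the control group Pdk3 was highest in library 2 and the S phase median in library 3, and the part of S phase genes in the result was not tested.

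The related kinase gene Pdk1, a known HIF target, had 27.8, 8.82 and 27.4 CPM in mutant libraries 1, 2 and 3, against 30.7, 30.2 and 22.1 CPM in control libraries 1, 2 and 3. Only mutant library 2 stood apart, and the log2 fold change of -0.37 ± 0.40 did not reach the threshold (edgeR adjusted p = 0.705). The log2 ratio of Pdk3 to Pdk1 counts within a library averaged 1.68 ± 0.70 in mutant and 0.22 ± 0.25 in control libraries (SD, n = 3 each; exact two-sided permutation p = 0.1, the smallest that 3 against 3 allows, and 0.2 adjusted over 12 pairs of related genes). Of these 12 pairs, 6 had groups without overlap and this same smallest p, so it does not set Pdk3 and Pdk1 apart. None of the 3 member genes of the complex itself passed. Pdha1 and Pdhb encode subunits of its decarboxylase and Dlat its acetyltransferase, and their log2 fold changes were 0.20 ± 0.23, -0.18 ± 0.12 and 0.17 ± 0.14 (edgeR adjusted p = 0.712, 0.505 and 0.617). Pdhb was lower in every mutant library than in any control library, and 22.7% of all tested genes had groups without overlap. Among 10 further genes of pyruvate entry, including the carrier genes Mpc1 and Mpc2 and the phosphatase genes Pdp1 and Pdp2, 0 passed in edgeR and 0 had an unadjusted p under 0.05. Over all tested genes these shares were 2.22% and 16.2%, so counts of 0 among 10 say little.

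**Figure D3:**
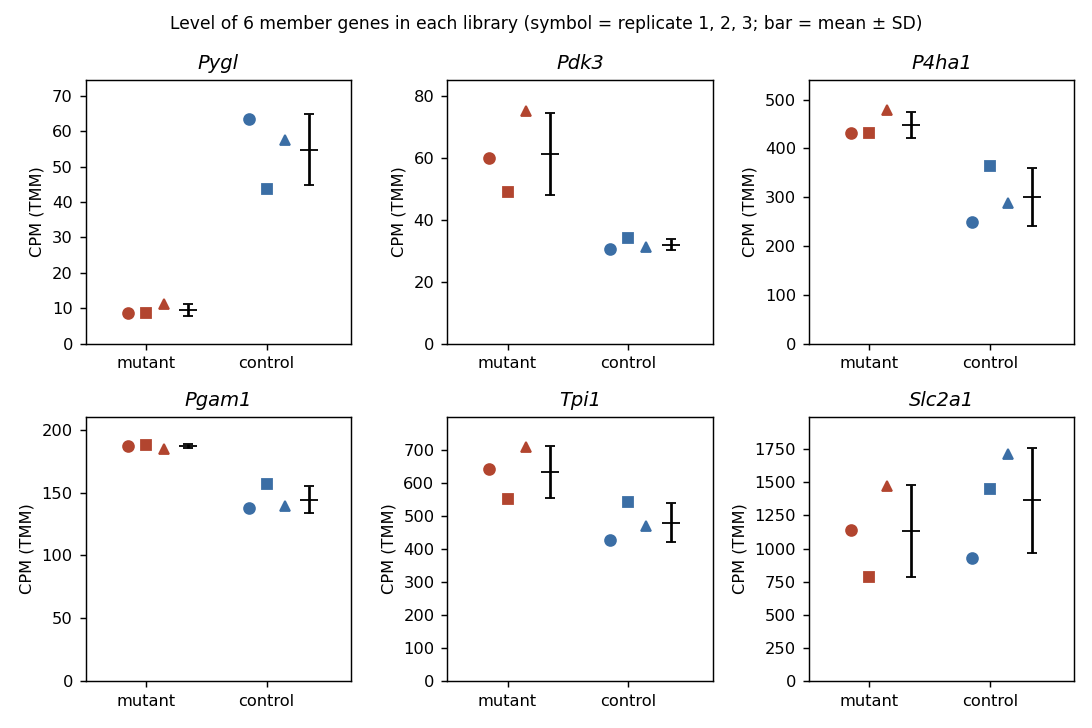
Normalized level (CPM) of 6 members in each library; circles, squares and triangles are replicates 1, 2 and 3, and the bar is the mean ± SD. Mutant and control values do not overlap for Pygl, Pdk3, P4ha1, Pgam1 and Tpi1, while those of Slc2a1 span 783 to 1476 CPM in mutant and 931 to 1715 CPM in control libraries.

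Of the member transporter genes, Slc2a1 was by far the higher in both groups and neither passed. Slc2a1, which encodes GLUT1, averaged 347.6 CPM per kb in mutant and 418.6 CPM per kb in control libraries, whereas Slc2a3, the GLUT3 gene, stood at 0.129 CPM per kb in mutant and 0.126 CPM per kb in control libraries. Slc2a1 had 1139, 783 and 1476 CPM in mutant libraries 1, 2 and 3, against 931, 1449 and 1715 CPM in control libraries 1, 2 and 3. Mutant library 2 and control library 1 were the lowest of their groups, and the groups overlapped. The log2 fold change of -0.27 ± 0.29 did not reach the threshold (edgeR adjusted p = 0.696). With the crystallin share of each library as a covariate Slc2a1 passed as lower, at a log2 fold change of -0.596 (edgeR adjusted p = 0.0307), in a fit where 6.51% of all genes passed against 2.22% without it.

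The hexokinase genes Hk1 and Hk2, whose products trap glucose in the cell, had log2 fold changes of 0.16 ± 0.17 and -0.29 ± 0.19 (edgeR adjusted p = 0.676 and 0.498). Within a library the log2 ratio of Hk2 to Hk1 averaged -0.86 ± 0.25 in mutant and -0.40 ± 0.14 in control libraries (SD, n = 3 each; exact two-sided permutation p = 0.1, 0.2 adjusted over 12 pairs). Of 8 further transport genes tested (15 listed), 0 passed in edgeR and 2 had an unadjusted p under 0.05, Slc2a8 and Slc2a12 (log2 fold change 0.79 for Slc2a12). Over all tested genes 16.2% had an unadjusted p under 0.05. Log2 fold changes were negative for 6 of the 8 transport genes, with a median of -0.43, against 6099 of all 12257 tested genes. Slc2a8, which encodes the intracellular transporter GLUT8, had 21.4, 36.2 and 24.7 CPM in mutant libraries, against 85.1, 56.7 and 41.8 CPM in control libraries, without overlap. The log2 fold change was -1.16 ± 0.30 (edgeR adjusted p = 0.1), and it passed with DESeq2 and with limma voom, where 6.70% and 6.59% of all genes passed, with the crystallin covariate and without mutant library 2.

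No member of the glycolytic chain passed. Values of 3 of them, Aldoa, Tpi1 and Pgam1, were higher in every mutant library than in any control library. Groups without overlap are common here, at 9 of the 35 tested members and 22.7% of all tested genes. Aldoa, the aldolase gene of most tissues, had 908.6, 818.9 and 933.8 CPM in mutant libraries, against 702.8, 740.8 and 610.4 CPM in control libraries. Tpi1, the gene of triosephosphate isomerase, had 640.5, 550.9 and 707.1 CPM in mutant libraries, against 425.0, 541.6 and 469.6 CPM in control libraries. Pgam1, which encodes phosphoglycerate mutase, had 187.4, 188.3 and 185.3 CPM in mutant libraries, against 138.0, 156.7 and 139.2 CPM in control libraries. In each of these 3 genes the groups did not overlap, and the log2 fold changes were 0.37 ± 0.14, 0.40 ± 0.15 and 0.37 ± 0.12 (edgeR adjusted p = 0.241, 0.248 and 0.164). They stayed between 0.30 and 0.50 when single libraries were left out, and none of these calls was made in any alternative that was run.

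Gpi1 and Pfkl, the genes of glucose phosphate isomerase and the liver isoform of phosphofructokinase, had log2 fold changes of 0.09 ± 0.12 and 0.18 ± 0.13, and Pgk1, the phosphoglycerate kinase gene, one of 0.25 ± 0.16. Gapdh, often used as a reference gene, had 1476, 1354 and 1683 CPM in mutant libraries, against 1700, 1639 and 1574 CPM in control libraries (log2 fold change -0.12 ± 0.15; edgeR adjusted p = 0.751). Pfkfb3 makes the sugar bisphosphate that activates phosphofructokinase, and it averaged 10.1 CPM ± 3.31 in mutant and 17.5 CPM ± 1.95 in control libraries (SD, n = 3 each). Its groups did not overlap, and the log2 fold change was -0.80 ± 0.28, which did not reach the threshold (edgeR adjusted p = 0.209). Pfkm and Pfkp, the muscle and platelet isoforms, stood at 6.98 and 2.02 CPM in mutant and 10.4 and 2.27 CPM in control libraries. Per kb, Pfkl exceeded both in either group, at 85.5 CPM per kb in mutant and 75.5 CPM per kb in control libraries. Aldoc, the brain aldolase, had a log2 fold change of 0.11 ± 0.29.

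Of the 6 member genes of the chain with the highest mean level in mutant libraries, Gapdh stood at 1059, Ldha at 577.5, Aldoa at 572.7, Tpi1 at 393.8, Pgam1 at 105.3 and Pgk1 at 100.05 CPM per kb. In control libraries Gapdh stood at 1153, Ldha at 430.3, Aldoa at 442.0, Tpi1 at 297.9, Pgam1 at 81.5 and Pgk1 at 84.0 CPM per kb. Among these 6, Gapdh was first in both groups, while the neighbouring pairs Aldoa and Ldha, and Pgk1 and Pgam1, lay within the spread of the libraries. These levels are sensitive to copies elsewhere in the genome. Windows of 50 bases that also occur in another annotated gene made up 82.5% of the longest Gapdh transcript, 72.2% for Eno1, 68.0% for Pgk1, 62.4% for Bnip3 and 41.5% for Pgam1. In all, 8 members exceeded 25%, and Pdk3 was among 12 with none.

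Enolase is the step whose level cannot be read from these counts. Eno1 had 55, 49 and 37 counts in mutant libraries 1, 2 and 3, against 60, 40 and 67 in control libraries 1, 2 and 3, or 1.46 CPM per kb in mutant and 1.75 CPM per kb in control libraries. Pgam1, the step before it, stood at 105.3 CPM per kb in mutant and 81.5 CPM per kb in control libraries. The gene Gm5506, described here because of its values and listed by RefSeq as a synonym of the protein-coding enolase copy Eno1b, had 56, 40 and 76 counts in mutant libraries, against 2334, 3050 and 2848 in control libraries. Every mutant library lay far below the lowest control library.

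Gm5506 fell with a log2 fold change of -5.65 ± 0.19 (edgeR adjusted p = 8.54e-06), and control libraries were 50.3-fold higher. In the authors' deposited table it had a log2 fold change of -5.55. Of the 50-base windows of the longest Eno1 transcript, 70.5% also occur in Eno1b. The log2 fold change of Eno1 alone was -0.27 ± 0.43 (edgeR adjusted p = 0.808). With the counts of both summed, an alternative added after the values were seen, it was -4.79 (edgeR adjusted p = 9.83e-06). How reads that fit both genes were counted is not given in the sources used here, so neither value is read as the change of enolase. Eno2, the neuronal enolase gene, had a log2 fold change of 0.55 ± 0.53 at means of 2.97 CPM in mutant and 2.03 CPM in control libraries (edgeR adjusted p = 0.659). Eno3, the muscle form and not a member, averaged 142.5 CPM ± 54.3 in mutant and 131.8 CPM ± 43.3 in control libraries (SD, n = 3 each; log2 fold change 0.11 ± 0.31).

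**Figure D4:**
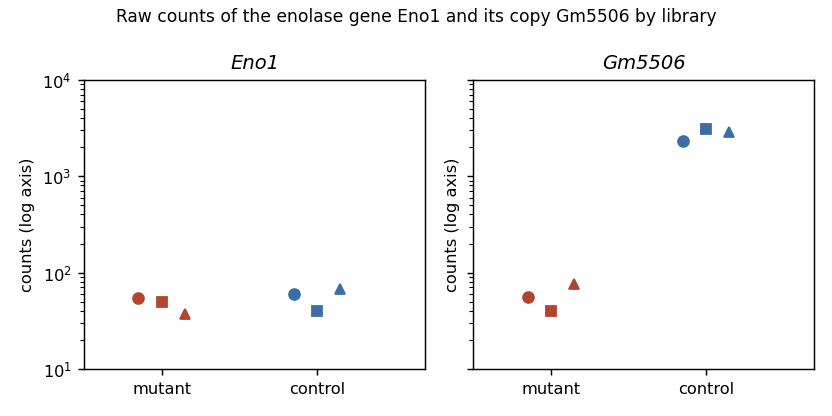
Raw counts, on a log axis, of Eno1 and of its copy Gm5506 in each library; circles, squares and triangles are replicates 1, 2 and 3. Eno1 holds 37 to 67 counts in every library, while Gm5506 holds 40 to 76 in mutant and 2334 to 3050 in control libraries.

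At the end of the chain, Ldha, which encodes the lactate dehydrogenase subunit that favours lactate, had 1232, 549 and 1364 CPM in mutant libraries 1, 2 and 3, against 501, 928 and 913 CPM in control libraries 1, 2 and 3. Mutant libraries 1 and 3 lay above all control libraries and mutant library 2 near the lowest control library, and the log2 fold change of 0.42 ± 0.37 did not reach the threshold (edgeR adjusted p = 0.617). Its sign turned with the crystallin share as covariate (-0.059). Ldhb, the gene of the heart-type subunit, was far lower per kb, at 4.25 CPM per kb in mutant and 3.62 CPM per kb in control libraries while Ldha stood at 577.5 in mutant and 430.3 in control libraries. The log2 ratio of Ldhb to Ldha was -7.58 ± 0.12 in mutant and -7.46 ± 0.37 in control libraries (SD, n = 3 each; exact two-sided permutation p = 0.7).

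Of 11 further glycolytic enzyme genes tested (20 listed, 1 not found), 0 passed in edgeR. An unadjusted p under 0.05 was found for 1, against 16.2% of all tested genes. Log2 fold changes were positive for 9 of the 11, with a median of 0.20, against 6158 of all 12257 tested genes. The gene with an unadjusted p under 0.05 was Galm, which encodes a galactose mutarotase, with a log2 fold change of 0.80 ± 0.31 (edgeR adjusted p = 0.25). Pkm, the pyruvate kinase gene, averaged 1871 CPM ± 124 in mutant and 1555 CPM ± 96.4 in control libraries (SD, n = 3 each; log2 fold change 0.27 ± 0.15; edgeR adjusted p = 0.43). Pgam2, the muscle mutase gene, had 74.3, 139.2 and 47.4 CPM in mutant libraries, against 369.5, 171.0 and 88.7 CPM in control libraries (log2 fold change -1.27 ± 0.56; edgeR adjusted p = 0.319). Among 9 tested genes of the pentose phosphate and polyol pathways and 2 of gluconeogenesis, 0 passed in edgeR and 0 had an unadjusted p under 0.05. G6pdx, the first enzyme gene of the pentose phosphate pathway, had a log2 fold change of 0.18 ± 0.13.

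The oxygen-sensing genes showed no called member. Hif1a, which encodes the oxygen-regulated subunit HIF-1α, had 329, 139 and 301.0 CPM in mutant libraries 1, 2 and 3, against 212, 240.4 and 332 CPM in control libraries 1, 2 and 3. The groups overlapped, with a log2 fold change of -0.03 ± 0.32 (edgeR adjusted p = 0.976). Epas1, the gene of the related factor HIF-2α, had 0.102, 0.412 and 0.218 CPM in mutant libraries, against 1.79, 0.304 and 0.554 CPM in control libraries. Its highest library, control 1, was also the highest for 7 of the 8 endothelial markers, among them Pecam1, Cdh5, Flt1 and Tie1 at 1.87, 2.54, 3.81 and 2.84 CPM. The exception was Tek, the most abundant, at 51.5, 22.7 and 53.1 CPM in mutant libraries 1, 2 and 3, against 28.0, 32.0 and 41.7 CPM in control libraries 1, 2 and 3, and the markers' part in the Epas1 value was not tested. Egln1 and Egln3 encode prolyl hydroxylases that mark HIF-1α for destruction, and their log2 fold changes were 0.24 ± 0.17 and 0.43 ± 0.46 (edgeR adjusted p = 0.543 and 0.697). Egln3 lay at 1.75 CPM in mutant and 1.30 CPM in control libraries, and Egln1 was the higher of the pair per kb in both groups.

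Among 14 HIF partners and regulators, 1 rose and 13 did not pass, with 7 log2 fold changes of each sign and a median of -0.019. Over the 8 further pathway lists together, 1 of 100 tested genes passed, against 2.22% of all tested genes. The gene that rose was Cited2, which encodes a protein that competes with HIF for its coactivators p300 and CBP and is itself induced by low oxygen. Cited2 had 135.1, 103.7 and 133.4 CPM in mutant libraries 1, 2 and 3, against 63.2, 66.0 and 56.3 CPM in control libraries 1, 2 and 3. Every mutant library exceeded every control library. The means were 124.1 CPM ± 17.7 in mutant and 61.8 CPM ± 5.03 in control libraries (SD, n = 3 each), a log2 fold change of 1.01 ± 0.15 (edgeR adjusted p = 0.012). The call was lost without mutant library 1 or 3 or control library 2 or 3, where log2 fold changes lay between 0.94 and 1.05 and the edgeR adjusted p between 0.0543 and 0.0732. Arnt2, which encodes a partner subunit of HIF, had 10.3, 11.5 and 11.3 CPM in mutant libraries, against 5.68, 3.64 and 6.93 CPM in control libraries, and did not pass (log2 fold change 1.02 ± 0.29; edgeR adjusted p = 0.132). Ubiquitin ligase genes Cul2 and Rbx1 had log2 fold changes of -0.18 ± 0.17 and 0.15 ± 0.14.

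Of the members grouped by role as hypoxia-induced, namely Vegfa, Bnip3, Ndrg1, P4ha1 and P4ha2, none passed. This grouping does not mean that the other members, Pdk3 among them, are not induced by hypoxia. P4ha1, which encodes a catalytic subunit of the collagen prolyl hydroxylase, had 432.2, 432.4 and 479.9 CPM in mutant libraries, against 248.5, 364.6 and 288.1 CPM in control libraries. The groups did not overlap, and the log2 fold change of 0.58 ± 0.16 did not reach the threshold (edgeR adjusted p = 0.125). It passed with DESeq2 (adjusted p = 0.0309) and in the authors' deposited table, where 6.70% and 6.11% of all genes passed and, in both, Pygl and Pdk3 were the other members called. P4ha2, its close relative, had a log2 fold change of -0.03 ± 0.29, and the log2 ratio of P4ha2 to P4ha1 averaged -5.42 ± 0.23 in mutant and -4.85 ± 0.43 in control libraries (SD, n = 3 each; exact two-sided permutation p = 0.1).

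Vegfa, the gene of the main vessel growth factor, had 51.4, 82.2 and 45.0 CPM in mutant libraries 1, 2 and 3, against 90.7, 57.95 and 66.8 CPM in control libraries 1, 2 and 3 (log2 fold change -0.27 ± 0.26; edgeR adjusted p = 0.65). Ndrg1, a stress-induced gene, had 26.3, 53.5 and 14.1 CPM in mutant libraries, against 99.5, 46.3 and 26.7 CPM in control libraries (log2 fold change -0.88 ± 0.58; edgeR adjusted p = 0.51). In both genes the groups overlapped and the library with the highest crystallin share was the highest of its group. Bnip3, which encodes a mitophagy receptor, had a log2 fold change of 0.21 ± 0.18 (edgeR adjusted p = 0.603). Of 27 further hypoxia-induced genes tested (36 listed), 0 passed in edgeR and 3 had an unadjusted p under 0.05, against 16.2% of all tested genes. Log2 fold changes were positive for 16 and negative for 11, with a median of 0.13. The 3 with an unadjusted p under 0.05 were Bhlhe40, a transcriptional repressor gene (1.06 ± 0.36), Igfbp3, a growth factor binding protein gene (1.17 ± 0.46), and Narf (-0.42 ± 0.16; log2 fold changes), with edgeR adjusted p of 0.195, 0.273 and 0.245.

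**Figure D5:**
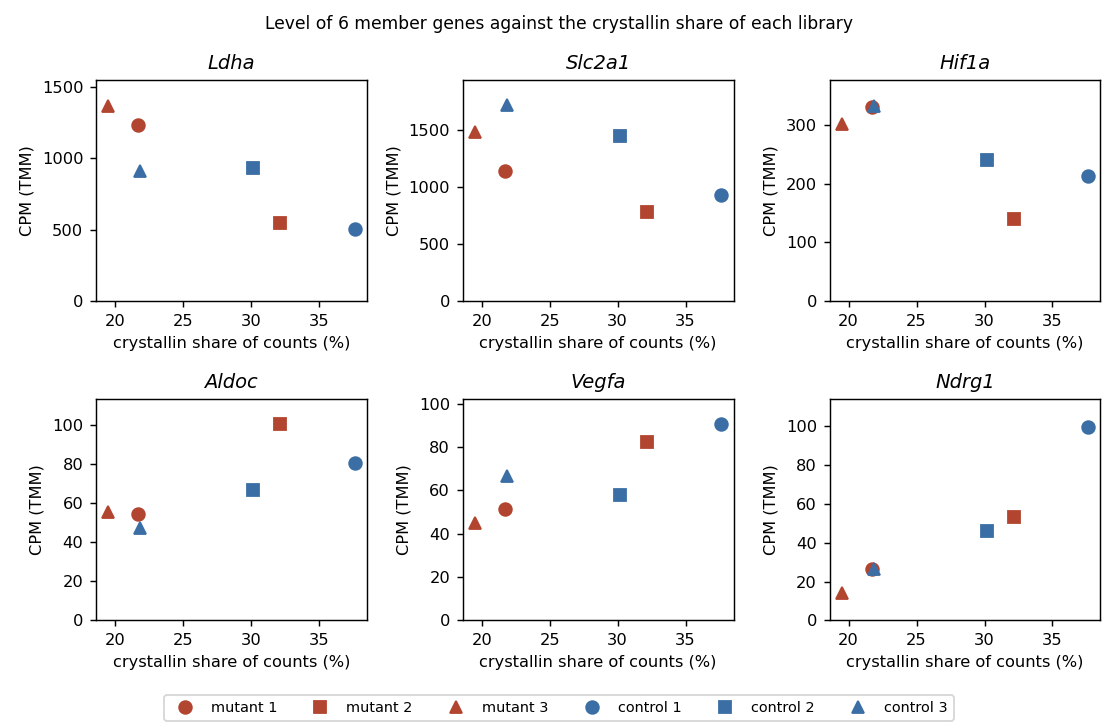
Normalized level (CPM) of 6 members against the share of counts from 16 crystallin genes in each library, red for mutant and blue for control. Ldha, Slc2a1 and Hif1a are lowest, and Aldoc, Vegfa and Ndrg1 highest, in the library of each group with the most crystallin counts (mutant 2 at 32.2% and control 1 at 37.6%).

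For some members the library with the most crystallin counts stood at the same end of both groups. In mutant library 2 and control library 1, the libraries with the highest share of their groups, 9 of 35 members had the lowest value of both groups, namely Tpi1, Ldha, Ldhb, Slc2a1, Slc2a3, Pdk3, Pygb, Hif1a and Egln1. A further 7 had the highest value of both groups, namely Aldoc, Eno1, Eno2, Pdha1, Pdhb, Vegfa and Ndrg1. Over all tested genes the shares were 21.8% lowest and 21.5% highest in both, against 25.7% and 20% of the members, so this order is shared with the rest of the table. The same libraries had the lowest Foxe3 of their groups, a gene of the lens epithelium, at 39.7 CPM in mutant library 2 and 51.2 CPM in control library 1. They also had the highest Mip, a fibre membrane channel gene, at 1517 CPM in mutant library 2 and 2355 CPM in control library 1. Of the rest of the 8 lens markers, Pax6 and the crystallin gene Cryab were lowest of both groups in these libraries. Cryaa, Prox1 and Maf were highest of both groups there, and Sox1 was at the same end of only the mutant group.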

How the data were processed

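RNA from the lens transition zone was amplified with an ultra-low input SMART-seq kit, which does not mark strand, per the labels' protocols. Build mm9 and the tools TopHat, Cufflinks, DESeq and bcl2fastq 1.8.4 appear, with no roles, per the submitters' processing notes. Which tool counted reads is not given in the sources used here. Raw counts by gene symbol were deposited, and 0 values differed between the single files and the series table. The deposited table of the authors' own comparison holds a mean signal, log2 fold changes, a test score and p-values; positive values are higher in mutant libraries, judged from the counts.

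Differences were fitted in R 4.3.3 with edgeR 4.0.16 (filterByExpr, minimum count 10; TMM; robust quasi-likelihood F test, no covariates; adjustment over 12257 genes). CPM values use TMM-scaled library sizes; the SE comes from the F statistic. Levels per kb use the longest coding transcript in GENCODE M21. Ratios of related genes used counts plus 0.5 and exact permutation tests. Promoter motifs were searched on both strands. Libraries of a group were no copies of each other (chi-square over its degrees of freedom 29.7 to 146). The procedure was tested on simulated data.

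Named genes are all members and up to 4 of lowest p from each pathway list; other genes were chosen after their values were seen. The members and lists were chosen with earlier results of these data known. Alternatives were other scalings, filters, a replicate block, DESeq2 1.42.0, limma 3.58.1 voom, a crystallin covariate and leaving out each library.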

Additional observations from a re-analysis of the deposited data

How the results depend on the processing

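The count of all called genes was 272. It was 122 with the replicate block, 821 with DESeq2, 808 with limma voom, 798 with the crystallin covariate, and between 91 and 479 when single libraries were left out. The count of called members was 2. It was 3 with DESeq2, 3 with the crystallin covariate, 1 with the replicate block and between 1 and 2 without single libraries, and Pygl was called in every setting. In the further pathway lists the count was 1, against 0 with the replicate block, 3 with DESeq2, 4 with limma voom, 2 with the crystallin covariate and between 0 and 2 without single libraries. Whether the replicate number pairs the libraries is not given. The deviations of same-numbered libraries correlated at -0.36, -0.20 and 0.26. Those of mutant library 2 and control library 1, which have the highest crystallin shares of their groups, correlated at 0.51. Such values cannot show if same-numbered libraries share a litter or batch. With the block the log2 fold changes of Pdk3 and Cited2 were 0.92 and 0.998, past no threshold. The members' median stayed between 0.067 and 0.19.

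Signs turned for small changes, and the cause was not tested. With limma voom the log2 fold changes of Pfkp, Aldoc, Slc2a3 and Hif1a were 0.12, -0.081, -0.145 and 0.12. With the crystallin covariate those of Ldha, Ldhb, Slc2a3, Pdp1 and Pck2 were -0.059, -0.35, -1.057, -0.046 and -0.13. With the block those of Slc2a3 and P4ha2 were -0.186 and 0.019. Without single libraries the log2 fold changes ran between -1.11 and 0.32 for Pfkp, -0.24 and 0.29 for Aldoc, -0.11 and 0.55 for Ldhb, -0.41 and 0.59 for Slc2a3, -0.010 and 0.42 for Pdha1, -0.050 and 0.20 for Gys1, -0.25 and 0.27 for Hif1a, -0.27 and 0.20 for P4ha2 and -0.22 and 0.87 for Pck2. The differences in log2 ratio ran between -1.52 and 0.021 for Pfkp to Pfkl, -0.33 and 0.011 for Ldhb to Ldha and -1.09 and 0.72 for Slc2a3 to Slc2a1. With 5 counts added, the difference in the log2 ratio of Slc2a3 to Slc2a1 was 0.19. Counts near the floor, as for Slc2a3, Epas1 and Pfkp, limit what can be said of them.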
